A study of Rattus norvegicus with 48 samples.

Results

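Gene expression in the CA1 subfield of the rat hippocampus was set against that in the CA3 subfield of the same animals. The comparison uses 22 of the 48 arrays of the series: 11 CA1 arrays and 11 CA3 arrays, paired by stress, lineage and replicate number. The rats were F3 males of the Sprague-Dawley strain, killed at 120 days of age, and each array held RNA from 2 mm tissue punches of 4 rats, pooled. In the vinclozolin lineage (Vin) the F0 females had received vinclozolin, a fungicide that blocks the androgen receptor, at 100 mg/kg/day during embryonic days 8 to 14. In the control lineage (Con) they had received the DMSO vehicle. A rat of each lineage shared a cage as a dyad, and the dyads were either restrained for 6 hours a day on postnatal days 23 to 43 (St) or not restrained (NSt). CA1 and CA3 each had 3 pools of St-Vin, NSt-Vin and NSt-Con rats. For St-Con rats 2 pools entered the pairs, because the third CA1 array equals the mean of the other two to within 0.005 on every probe set. All animals thus descended from females given vehicle or vinclozolin and lived in mixed-lineage dyads, and the subfields were defined by punch, not by sorted cells.

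The hippocampus passes signals through a chain of fields: granule cells of the dentate gyrus send mossy fibres to CA3 pyramidal cells, and these send Schaffer collaterals to CA1 pyramidal cells. The fields differ in transcription factors, receptors, calcium-binding proteins and adhesion molecules, and several of these genes serve as field markers. In CA3, chronic restraint is known for remodelling apical dendrites, and CA1 carries dense glucocorticoid receptors.

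Values are log2 signals minus the median of their array, so that 0 is the median probe set of an array, and a difference of 1 is 2-fold. Before this step the array medians were 7.11 to 7.17 in CA1 and 7.34 to 7.39 in CA3. Arrays of 1 area correlated at 0.9753 to 0.997 in CA1 and 0.9888 to 0.9977 in CA3, and the CA1 and CA3 arrays of 1 pool at 0.9787 to 0.9878 (Pearson, across probe sets, which are not independent). The first principal component held 45.8% of the variance and separated the areas. All CA3 arrays were scanned on day 5 of the series, whereas the 11 CA1 arrays used were scanned on day 4 (St-Vin) or day 3 (the other groups). Area and scan day therefore cannot be told apart in any value below.

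A paired limma fit called 16339 of 27342 probe sets (59.8%) at an adjusted p under 0.05. Of these, 9797 (35.8%) were higher and 6542 (23.9%) lower in CA1, with a median absolute difference of 0.134 over all probe sets. Genes of another organ passed too: of 1286 probe sets for olfactory, vomeronasal and trace amine receptors, 570 were higher and 303 lower in CA1 (67.9% in all). Most of the calls are small, so 2 sizes are used besides the p-value. At 0.5 or more, 1063 probe sets (3.89%) passed, 678 (2.48%) higher and 385 (1.41%) lower in CA1. At 2-fold or more 38 (0.139%) passed, 17 (0.0622%) higher and 21 (0.0768%) lower, and without pool St-Vin 2 there were 23. The shares by signal were uneven. With the probe sets in 5 bins by signal, 60.4% were higher and 8.94% lower in CA1 in the dimmest bin. The shares were 46.3% and 24.4% in the next bin, and 19.5% and 19.2% in the brightest. Fos, Lefty1, Chrna4, Cyp11b2, Kcns1, Or4f56, Esr2, Ntf3 and Drd2, named below, lay below the 30th percentile of signal. The fit with a filter at that percentile left them out.

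The markers of CA1 did not follow the labels, and those of CA3 did so only in part. Of 11 measured CA1 pyramidal cell markers, 2 were higher in CA1 (Lefty1, an antagonist of nodal signalling, and Spink8, a protease inhibitor), 3 were lower and 6 did not pass. Lefty1 lay below the 30th percentile of signal, and without centring Spink8 was lower in CA1 (-0.08). The median difference was -0.18, against 0.029 for all probe sets. Of 15 measured CA3 pyramidal cell markers, 2 were higher in CA1, 5 were lower and 8 did not pass. The 2 were Socs2, a suppressor of cytokine signalling, and the proteoglycan Spock1. The median was -0.14, and the list mean was higher in CA1 in 3 of 11 pairs. Of all probe sets 35.8% were higher and 23.9% lower in CA1. The areas are therefore called by their labels below, with no claim that a punch held mainly the pyramidal cells of its field.

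Wfs1, which encodes the endoplasmic reticulum protein wolframin and marks CA1 pyramidal cells, had a lowest, median and highest level of 1.24, 2.84 and 3.49 in CA1, against 2.24, 2.83 and 3.50 in CA3. The CA3 range lay almost wholly within that of CA1, and the difference was -0.15 ± 0.233 (SE, n = 11 pairs, adjusted p = 0.604). The pairs were split by replicate number: Wfs1 was higher in CA1 in the 4 pools numbered 2, by 0.42 to 1.10, and lower in CA1 in the 4 pools numbered 1 and the 3 numbered 3. Fibcd1, a receptor that binds acetylated groups and another CA1 marker, had positive differences of 0.02 to 0.53 in all pools numbered 2 and negative ones of -0.52 to -0.20 in all pools numbered 1. Its difference over all pairs was -0.20 ± 0.122 (adjusted p = 0.166).

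Grik4, a kainate receptor subunit of CA3 pyramidal cells, had 0.48, 1.40 and 2.49 in CA1 and 1.43, 1.68 and 2.12 in CA3. The 2 highest values of all 22 arrays were those of CA1 NSt-Con 3 (2.49) and CA1 NSt-Vin 3 (2.31). The difference over 11 pairs was -0.25 ± 0.174 (adjusted p = 0.227). Bok, a Bcl-2 family member used as a CA3 marker, differed by -0.10 ± 0.0697 (adjusted p = 0.227).

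The pairs of pools NSt-Con 3 and NSt-Vin 3 went against their labels. The mean over CA1 markers was lower in the arrays labelled CA1 than in those labelled CA3, with differences of -0.71 and -0.88, and the mean over CA3 markers was higher, by 0.56 and 0.50. In the 8 pools numbered 1 or 2 the CA1 list differed by -0.20 to 0.53 and the CA3 list by -0.64 to 0.04. Pool St-Vin 3 lay near 0 on both lists (-0.04 and -0.10). Values without the pools numbered 3 are therefore given as well, from 8 pairs, a choice made after the data were seen. Since the pools were left out for their marker values, the 8-pair values are a description and no support for a difference, and subfield and dentate markers get no test there. In those 8 pairs Wfs1 differed by 0.24 and Grik4 by -0.56. The fit of the 8 pairs called 35.6% of all probe sets higher and 25.1% lower in CA1, and at 0.5 or more 2.96% higher and 1.91% lower.

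**Figure D1:**
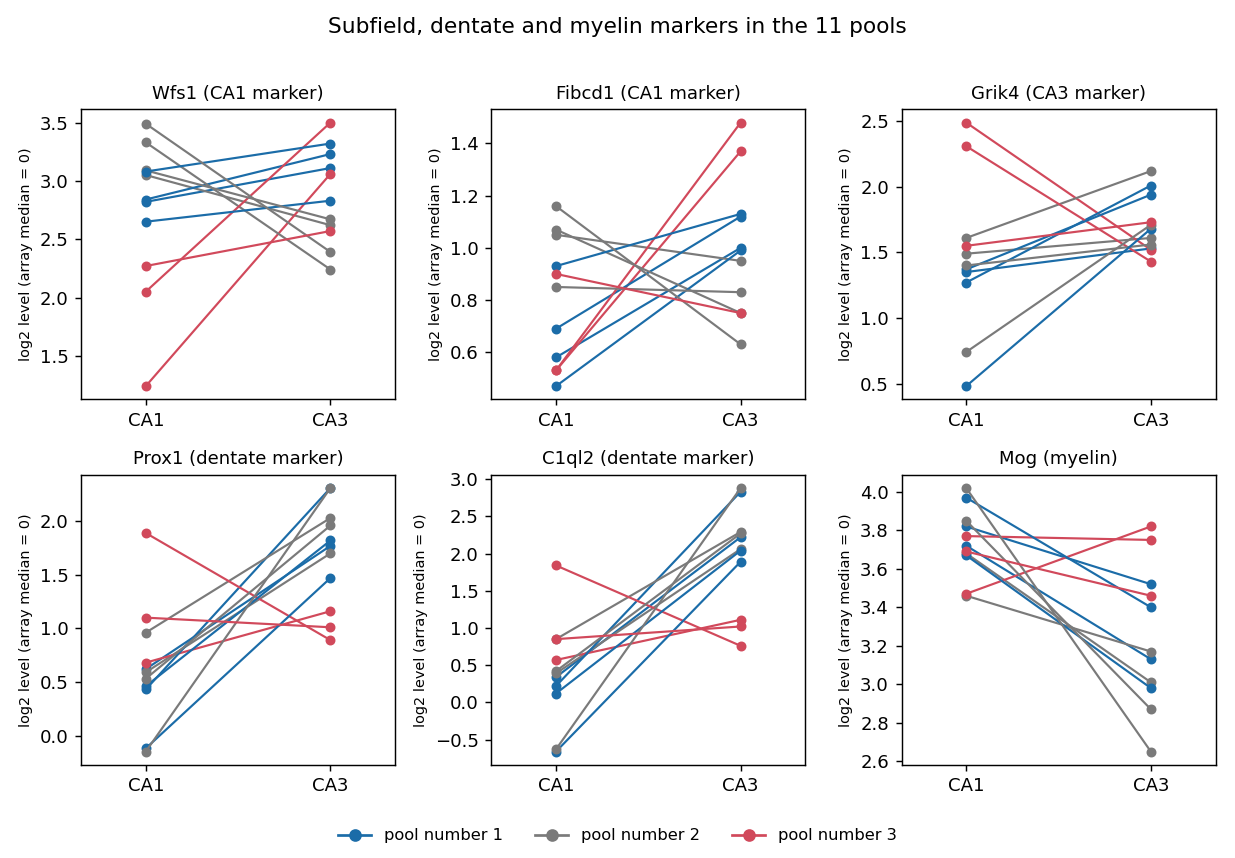
Levels (log2, array median = 0, vertical axis) of 6 marker genes in the CA1 and CA3 arrays of each of 11 pools, joined by a line and coloured by replicate number. Prox1, C1ql2 and Grik4 are lower in CA1 in all 8 pools numbered 1 or 2. There the lines of Wfs1 and Fibcd1 run both ways.

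**Figure D2:**
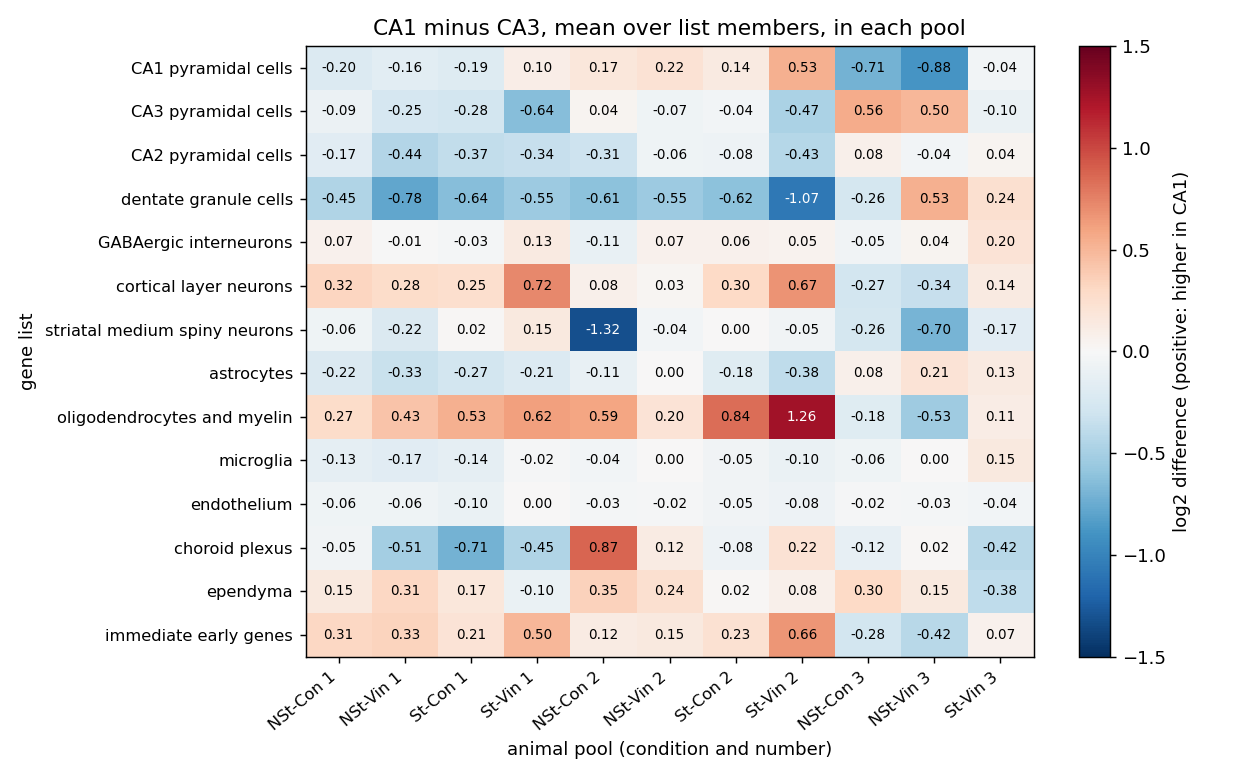
CA1 minus CA3 difference (log2) of the mean over 14 gene lists, with lists down the side and the 11 pools across, ordered by replicate number; red is higher in CA1 and blue lower. The dentate list runs from -0.45 to -1.07 in the 8 pools numbered 1 or 2, and is 0.53 in NSt-Vin 3.

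Most markers of dentate granule cells were lower in CA1 than in CA3. Of 8 measured markers, 6 were lower in CA1 and 2 higher, and the median was -0.49. The 2 were Sema5b, a semaphorin (0.75), and Tdo2, tryptophan dioxygenase (0.50), the second named after its value was seen. Over all probe sets 23.9% were lower and 35.8% higher, with a median of 0.029. At the size of 0.5, 4 of the 8 were lower, against a background of 1.41%. In bulk tissue, fewer granule cells and less RNA per granule cell cannot be told apart.

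Prox1, the homeobox factor that sets granule cell identity, had -0.15, 0.59 and 1.89 in CA1, against 0.89, 1.77 and 2.31 in CA3. The difference was -1.04 ± 0.243 (adjusted p = 0.00206), lower in CA1 in 9 of 11 pairs, and -1.51 in the 8 pairs without the pools numbered 3. The exceptions were NSt-Vin 3 (1.00) and St-Vin 3 (0.09). In CA3, the arrays numbered 3 held the lowest Prox1 levels, 1.16, 0.89 and 1.01, and the St-Con 3 array that has no partner had 0.85, whereas the other 8 CA3 arrays lay at 1.47 to 2.31.

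C1ql2, a secreted C1q-like protein of mossy fibre synapses, gave the largest named difference below 0. Its levels were -0.66, 0.39 and 1.84 in CA1 and 0.76, 2.06 and 2.88 in CA3, a difference of -1.55 ± 0.324 (adjusted p = 0.000902). It was lower in CA1 in 10 of 11 pairs, with a difference of -3.51 in St-Vin 2, and 1.08 higher in NSt-Vin 3. Without the pools numbered 3 the difference was -2.18.

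Calb1, which encodes the calcium buffer calbindin, was lower in CA1 by a difference of -0.62 ± 0.118 (adjusted p = 0.000447), and Trpc6, a cation channel, by -0.85 ± 0.177 (adjusted p = 0.000885). In pool NSt-Vin 3 both differences were above 0 (0.03 and 0.81), as was that of Calb1 in St-Vin 3 (0.23). Neurod1 and Bhlhe22, basic helix-loop-helix factors of granule and other excitatory neurons, differed by -0.81 ± 0.149 and -1.05 ± 0.194. In NSt-Vin 3 their differences were above 0 too (0.24 and 0.33). Calb2, the calretinin gene, which mossy cells and interneurons express, was lower in CA1 in all 11 pairs (-0.61 ± 0.0748). Of 35 measured forebrain transcription factors, 12 were lower and 3 higher in CA1, against 23.9% and 35.8% of all probe sets, and the median was -0.11, against 0.029. Besides Prox1 and Neurod1 the lower ones included Rfx3, a regulator of ciliary genes (-0.85 ± 0.248). Emx2, a homeobox factor of the hippocampal field, was lower too (-0.49 ± 0.0824), as was the POU factor Pou3f1 (-0.55 ± 0.0859). Pou3f1 is itself on the CA1 marker list. Rfx3 was higher in CA1 in NSt-Vin 3 (1.23) and NSt-Con 3 (0.06), and Emx2 in St-Vin 3 (0.12).

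Among named genes, the largest difference below 0 that held in every pair was that of Pdyn, the prodynorphin gene, whose opioid peptides granule cells release from mossy fibres. Of all probe sets 9.37% were lower in CA1 in all pairs. Pdyn had -0.60, -0.49 and -0.02 in CA1 and 0.17, 0.85 and 1.52 in CA3, with no overlap, where 15.5% of all probe sets had none. The difference was -1.29 ± 0.138 (adjusted p = 2.25e-06), and -1.58 in the 8 pairs. The CA3 arrays numbered 3 were again the lowest, at 0.17, 0.30 and 0.41, and the unpaired St-Con 3 array had 0.06.

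Of the 21 probe sets that were at least 2-fold lower in CA1, 12 carry 1 gene symbol. Besides C1ql2, Pdyn, Prox1 and Bhlhe22 they were Gnal, Lrrc10b, Perp, Nrp2, Cst6, Cxcl12, Kcns2 and Gpc4. Gnal, the olfactory-type G protein alpha subunit that couples to adenylyl cyclase, differed by -1.28 ± 0.128 (adjusted p = 1.21e-06). Perp, a membrane protein of desmosomes and a p53 target, differed by -1.22 ± 0.159, and Cst6, a cystatin-type protease inhibitor, by -1.18 ± 0.129. Cst6 and Perp did not overlap between the areas, and the highest CA1 levels were 0.21 and 0.00, below the lowest CA3 levels of 0.59 and 0.26.

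Cxcl12, a chemokine that guides granule cell precursors, had 0.57, 1.10 and 1.75 in CA1 and 1.58, 2.38 and 2.61 in CA3 (difference -1.10 ± 0.147, adjusted p = 1.88e-05). Gpc4, a heparan sulphate proteoglycan of the cell surface, differed by -1.01 ± 0.122, and Lrrc10b, a leucine-rich repeat gene, by -1.24 ± 0.18. In pool NSt-Vin 3 the differences of these genes were near 0, at 0.11 for Cxcl12, -0.06 for Gpc4 and -0.02 for Lrrc10b. Kcns2, a silent subunit that modifies Kv2 potassium channels, behaved otherwise. It had -0.86, -0.72 and -0.50 in CA1 and 0.19, 0.35 and 0.58 in CA3, and its difference of -1.05 ± 0.0468 (adjusted p = 8.76e-10) was nearly the same without the pools numbered 3 (-1.08).

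Receptors and transporters were also among the genes lower in CA1. Htr1a, the serotonin 1A receptor, which is dense in dentate gyrus and CA1, had 0.99, 1.45 and 2.02 in CA1 and 1.85, 2.31 and 2.82 in CA3 (difference -0.87 ± 0.118, adjusted p = 2.22e-05). Grm2, a presynaptic metabotropic glutamate receptor of mossy fibres, differed by -0.66 ± 0.122 (adjusted p = 0.000361). Slc17a6, the vesicular glutamate transporter VGLUT2, was lower in CA1 in all 11 pairs without overlap (-0.71 ± 0.0521), as was the Eph receptor gene Epha8 (-0.75 ± 0.0639). Ntf3, the neurotrophin-3 gene, which granule and CA2 cells express, differed by -0.80 ± 0.118.

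Penk, the proenkephalin gene, was lower in CA1 by a difference of -0.63 ± 0.183 (adjusted p = 0.00884) in 11 pairs. In the 8 pairs, a description only, the difference was -0.52, and Penk was lower in CA1 in 7 of them. Its CA3 levels of 2.91 in NSt-Con 2 and 2.15 in NSt-Vin 3 stood above those of the other 9 arrays. The same 2 CA3 arrays had the highest values of Drd2 (0.13 and -0.51), the dopamine D2 receptor, and of Adora2a (0.90 and 0.25), an adenosine receptor, both typical of striatal neurons. Over the striatal list of 11 measured genes the CA3 array means reached 1.41 against a CA3 median of 0.17, and those of CA1 0.26 against a median of 0.08. In Gnal, which striatal neurons also express, CA3 NSt-Con 2 was highest too (2.28), and its difference without that pool was -1.21, beside -0.45 for Penk (adjusted p = 0.00531). The part of striatal tissue in these differences was not tested.

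**Figure D3:**
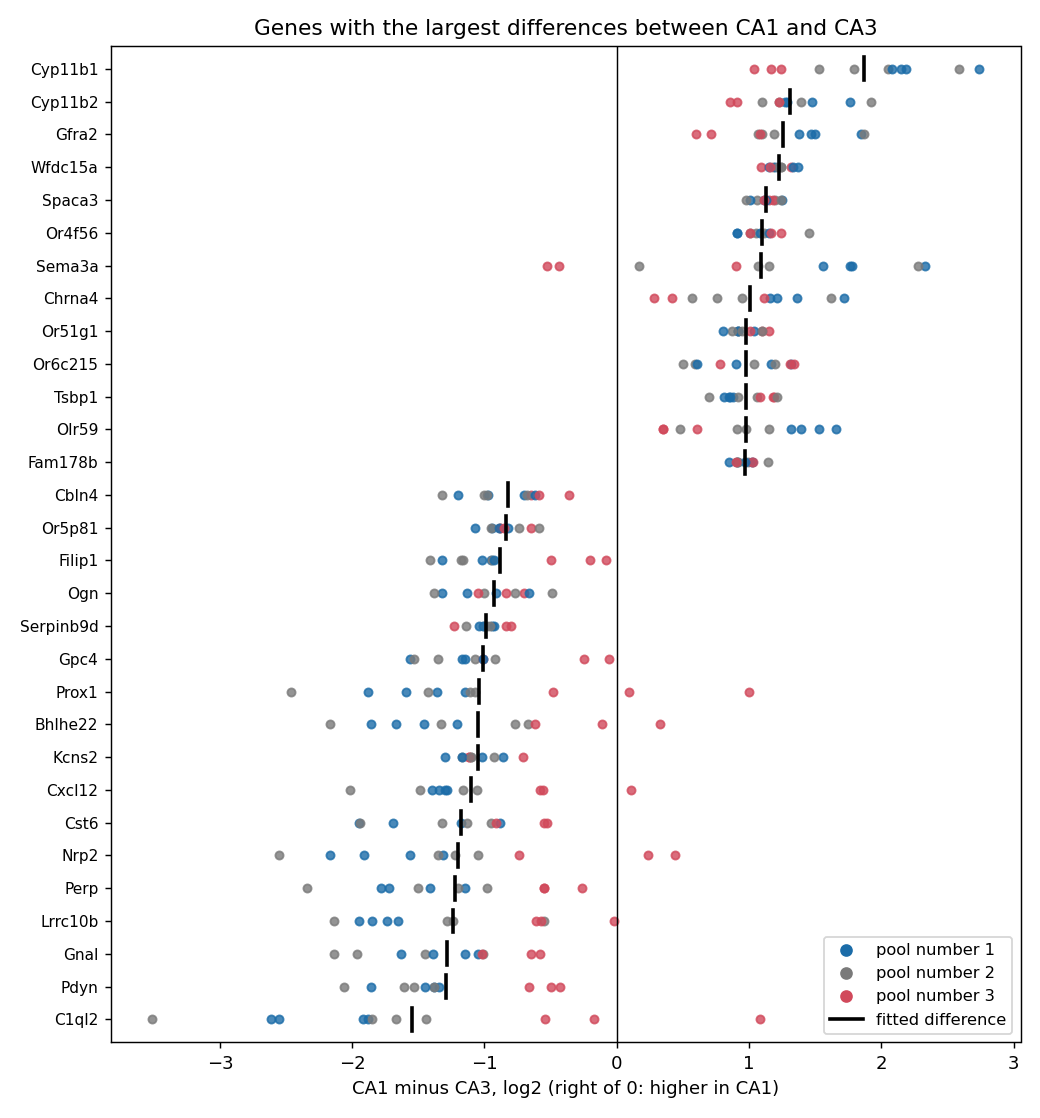
CA1 minus CA3 differences (log2, horizontal axis) of the genes with the largest differences in either direction, a point for each of 11 pools coloured by replicate number and a black bar at the fitted difference. Pools numbered 3 lie nearest to 0 or beyond it for C1ql2, Nrp2, Bhlhe22 and Prox1, whereas Wfdc15a, Spaca3 and Kcns2 hold in all pools.

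Of the 17 probe sets at least 2-fold higher in CA1, 8 carry 1 symbol. Cyp11b1, the 11-beta-hydroxylase that makes corticosterone in the adrenal cortex, had -0.38, 0.50 and 1.62 in CA1 and -1.61, -1.42 and -0.76 in CA3. The difference was 1.87 ± 0.146 (adjusted p = 1.18e-07), higher in CA1 in all 11 pairs, as were 18.8% of all probe sets. Its near-identical paralogue Cyp11b2, aldosterone synthase, differed by 1.31 ± 0.0843. Probes for the 2 genes may share signal, so which of them differed is uncertain.

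Gfra2, the receptor for the growth factor neurturin, had -0.44, 0.17 and 0.81 in CA1 and -1.27, -1.04 and -0.91 in CA3 with no overlap (difference 1.26 ± 0.106, adjusted p = 2.45e-07). Chrna4, a nicotinic acetylcholine receptor subunit, differed by 1.01 ± 0.121 (adjusted p = 6.71e-06), and Chrna5, an accessory subunit, by 0.80 ± 0.201 (adjusted p = 0.00357). Chrna5 was lower in CA1 in NSt-Con 3 (-0.24) and NSt-Vin 3 (-0.57). Tacr3, the neurokinin B receptor, was 0.80 ± 0.0892 higher in CA1 without overlap.

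Sema3a, a secreted repellent of growing axons, was higher in CA1 in 9 of 11 pairs (1.09 ± 0.255, adjusted p = 0.00201) and 1.51 higher in the 8 pairs. CA1 NSt-Con 3 and CA1 NSt-Vin 3 had levels of -0.95 or less, below the other 9 CA1 arrays at 0.15 to 1.69. CA3 ran from -0.96 to -0.02. These 2 arrays were also the lowest CA1 arrays for Cyp11b1 (-0.38 and -0.30) and Gfra2 (-0.38 and -0.44), although both genes stayed higher than in the paired CA3 arrays.

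Cyp11b1, Gfra2, Sema3a, Chrna4 and Tacr3 had still higher mean levels in the motor cortex of the same animals. These values were centred in the same way (n = 11 arrays, since 1 array equals the mean of the others of its group). Motor cortex had RNA preparation day 1 and scan days 1 and 2. CA1 and CA3 had RNA preparation day 2 and scan days 3 to 5. Motor cortex and batch therefore cannot be told apart in these values. Cyp11b1 averaged 0.53 ± 0.58 in CA1 and -1.34 ± 0.23 in CA3 (SD, n = 11 each), beside 2.26 ± 0.11 in motor cortex. Gfra2 averaged 0.20 ± 0.40 in CA1, -1.05 ± 0.10 in CA3 and 1.32 ± 0.15 in motor cortex. For Sema3a the means were 0.45 ± 0.85, -0.65 ± 0.26 and 2.09 ± 0.11, and for Chrna4 -0.64 ± 0.49, -1.65 ± 0.09 and 0.55 ± 0.17. Of 7 measured markers of cortical layer neurons, 3 were higher in CA1 (Ccn2, Stard8 and Rspo1) and Nptx1 was lower, where 35.8% and 23.9% of all probe sets were. The list's array means were 0.84 to 1.81 in CA1 and 1.05 to 1.19 in CA3. The part of cortical tissue in these differences was not tested.

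Other large differences above 0 were in genes not known for a role in neurons. Wfdc15a, which encodes a protein with a WAP domain, had -0.10, 0.00 and 0.13 in CA1 and -1.39, -1.19 and -1.09 in CA3 (difference 1.23 ± 0.0299, adjusted p = 1.38e-11). Spaca3, a sperm acrosome protein, differed by 1.13 ± 0.0304, and the olfactory receptor gene Or4f56 by 1.10 ± 0.0446. Tsbp1, a testis-expressed gene, and the olfactory receptors Or51g1, Or6c215 and Olr59 each differed by 0.98. Wfdc15a, Spaca3 and Or4f56 differed by nearly the same amount without the pools numbered 3 (1.24, 1.12 and 1.08). An olfactory receptor gene also stood among the lowest, Or5p81 at -0.84 ± 0.0407.

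**Figure D4:**
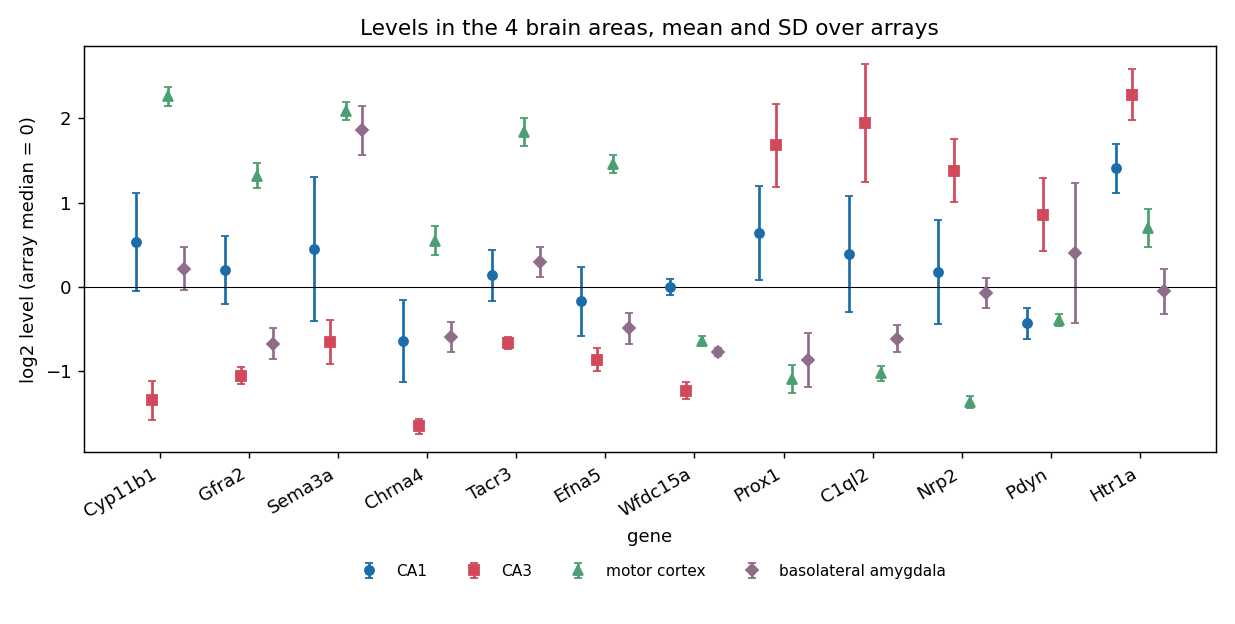
Mean level and SD (log2, array median = 0, vertical axis) of 12 genes in CA1 (n = 11 arrays), CA3 (n = 11), motor cortex (n = 11) and basolateral amygdala (n = 12). Cyp11b1, Gfra2, Sema3a, Chrna4, Tacr3 and Efna5 are higher in CA1 than CA3 and highest in motor cortex, whereas Prox1, C1ql2, Nrp2 and Htr1a are highest in CA3. Motor cortex and amygdala had other RNA preparation and scan days than CA1 and CA3.

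Of 23 measured semaphorins, plexins and neuropilins, 6 were higher and 8 lower in CA1, with a median of -0.07, where 35.8% of all probe sets were higher and 23.9% lower. At 0.5 or more, 3 were higher and 1 lower, against 2.48% and 1.41%. Nrp2, the neuropilin that binds class 3 semaphorins such as Sema3f, was lower in CA1 (-1.20 ± 0.235, adjusted p = 0.000539), while the ligand genes Sema3a and Sema3b (0.71 ± 0.0664) were higher. Nrp2 had -0.79, 0.22 and 1.16 in CA1 and 0.72, 1.45 and 1.88 in CA3, and its difference was above 0 in NSt-Con 3 (0.24) and NSt-Vin 3 (0.44). Of 18 measured ephrins and Eph receptors 4 were higher and 8 lower, and 1 in each direction at 0.5 or more. Among them, the ligand gene Efna5 was higher in CA1 (0.68 ± 0.123) and the receptor genes Epha8 and Epha7 (-0.45 ± 0.117) lower. Flrt3, a membrane adhesion protein that binds latrophilin and Unc5 receptors, differed by -0.83 ± 0.149, and the cadherin gene Cdh8 by -0.61 ± 0.0894.

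Few channel and fast receptor genes differed by much. Of 40 measured voltage-gated potassium channel genes, 6 were higher and 14 lower in CA1 (median -0.03), where 35.8% of all probe sets were higher and 23.9% lower. One gene, Kcns2, passed 2-fold, as did 0.139% of all probe sets. Kcng3, another silent subunit, was lower without overlap (-0.51 ± 0.0591), and the silent subunit gene Kcns1 was higher without overlap (0.45 ± 0.0283). Of 17 measured ionotropic glutamate receptor genes, 3 were higher and 6 lower. Grik3 was higher (0.55 ± 0.194, a call that held in 17 of 22 alternative settings) and Grik2 lower in CA1 (-0.40 ± 0.106, and -0.61 in the 8 pairs), both kainate receptor subunits. Gria1, the AMPA receptor subunit GluA1, differed by -0.20 ± 0.0821 (adjusted p = 0.0531) over 11 pairs and by -0.32 over 8 pairs. Gabra5, the GABA-A receptor subunit of extrasynaptic receptors in hippocampus, differed by 0.05 ± 0.0874 (adjusted p = 0.63). Of 31 measured sodium, calcium and HCN channel genes 6 were higher and 6 lower, and of 43 calcium buffer, store and kinase genes 5 were higher and 15 lower (median -0.06).

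Myelin genes were higher in CA1. Of 20 measured oligodendrocyte and myelin genes, 15 were higher, 0 lower and 5 did not pass, with a median of 0.40, where 35.8% of all probe sets were higher and the median was 0.029. Mog, a glycoprotein of the outer myelin surface, had 3.46, 3.72 and 4.02 in CA1 and 2.65, 3.17 and 3.82 in CA3 (difference 0.49 ± 0.12, adjusted p = 0.00306). Mag, a myelin-associated glycoprotein, differed by 0.53 ± 0.162 and Mbp, myelin basic protein, by 0.35 ± 0.133, a call that held in 13 of 22 alternative settings. A second, dim Mbp probe set differed the other way (-0.20). The list mean was higher in CA1 in 9 of 11 pairs, by up to 1.26, and lower in NSt-Con 3 and NSt-Vin 3 (-0.18 and -0.53). The 8 pairs without the pools numbered 3 leave out both of these, so their median of 0.65 is a description and no support.

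Of 14 measured astrocyte genes, 4 were lower and 0 higher in CA1, where 23.9% of all probe sets were lower and 35.8% higher, and the median was -0.12. In the pools numbered 3 the list mean was higher in CA1 (0.08, 0.21 and 0.13), so values of the 8 other pairs are a description and no support. Fgfr3, a fibroblast growth factor receptor, differed by -0.30 ± 0.0573, and Gja1, the gap junction gene connexin 43, by -0.16 ± 0.0616, a call that held in 11 of 22 alternative settings. Gfap, the astrocyte filament gene, did not pass over 11 pairs (-0.16 ± 0.0694, adjusted p = 0.055), and its 8-pair difference was -0.23. Of 18 interneuron markers 5 were higher and 2 lower, again against 35.8% and 23.9%. Gad1, the GABA-synthesising enzyme, did not pass over 11 pairs (-0.07 ± 0.0633, adjusted p = 0.364). Its difference was 0.11, 0.31 and 0.15 in the left-out pools NSt-Con 3, NSt-Vin 3 and St-Vin 3, and -0.17 over the 8 pairs. Dlx1, a homeobox factor of interneurons, was higher in CA1 without overlap (0.76 ± 0.0345).

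Of 16 measured choroid plexus genes, 1 was higher and 5 lower in CA1, where 35.8% of all probe sets were higher and 23.9% lower. Ttr, the transthyretin gene and the most abundant of that tissue, had 0.25, 3.98 and 8.44 in CA1 and -1.69, 3.75 and 7.10 in CA3 (difference 0.82 ± 0.502, adjusted p = 0.176). The list's array means reached 2.41 in CA1 and 2.54 in CA3, both in pool NSt-Con 3. Of 62 oxidative phosphorylation genes, 16 were higher and 15 lower, against the same shares of all probe sets, with a median of -0.01.

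**Figure D5:**
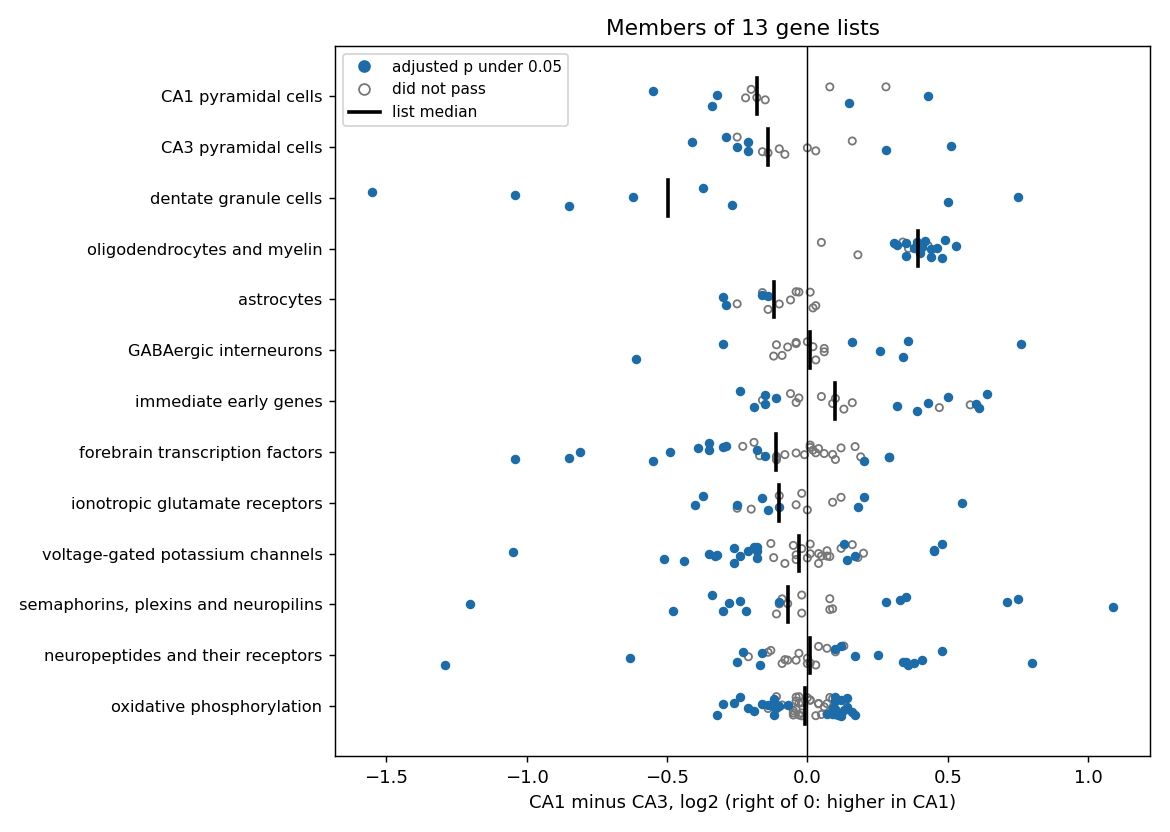
CA1 minus CA3 difference (log2, horizontal axis) of every measured member of 13 gene lists, filled where the adjusted p was under 0.05, with a bar at the list median. Myelin genes lie to the right of 0 and most dentate genes to the left, whereas the CA1 and CA3 marker lists straddle 0.

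Of 23 measured immediate early genes, which neurons switch on within minutes of activity, 7 were higher in CA1, 5 lower and 11 did not pass, with a median of 0.10. These counts did not exceed the shares of all probe sets, 35.8% higher and 23.9% lower. At 0.5 or more 3 were higher and 0 lower, against 2.48% and 1.41%: Fos, Dusp1 and Npas4. Fos, a subunit of the AP-1 transcription factor, had -0.99, -0.71 and -0.20 in CA1 and -1.48, -1.30 and -0.98 in CA3. It was higher in CA1 in all 11 pairs (0.60 ± 0.0866, adjusted p = 3.68e-05), but its signal lay below the 30th percentile. Dusp1, a phosphatase that switches off MAP kinases, differed by 0.64 ± 0.221 (adjusted p = 0.0223), and Npas4, a neuronal activity-dependent transcription factor, by 0.61 ± 0.206 (adjusted p = 0.0201). The call held in 17 of 22 alternative settings for Dusp1 and in 18 for Npas4. Both were lower in CA1 in NSt-Con 3 and NSt-Vin 3, and in the 8 other pairs they differed by 1.04 and 1.01. These 8 pairs leave out the only pools where the list mean was lower in CA1, NSt-Con 3 (-0.28) and NSt-Vin 3 (-0.42). Their values are therefore a description and no support. The highest CA1 arrays for Dusp1 and Npas4 (1.94 and 1.74) lay below the means of motor cortex (2.15 and 2.01). Motor cortex had other RNA preparation and scan days than CA1.

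Many immediate early genes answer to the factor CREB, which binds the cAMP response element TGACGTCA, a palindrome that reads the same on both strands. Of 16 promoters of the list in RefSeq (GRCr8, 300 bases that span each gene's start), 3 hold it (18.8%), as do 525 of 27457 rat promoters (1.91%). The promoter of Fos was not among the 16, and that of Npas4 does not hold the element. The 3 are those of Dusp1, Ier2 and Jund, chosen for the element and not for their values. Dusp1 was higher in CA1, Ier2 was lower (-0.11, adjusted p = 0.0257) and Jund did not pass (-0.06, adjusted p = 0.342). The 3 promoters are shown with the element in capitals. They lie at chr10:17184603-17184902 (plus strand), chr19:40399123-40399422 (plus strand) and chr16:18769722-18770021 (minus strand).
Dusp1: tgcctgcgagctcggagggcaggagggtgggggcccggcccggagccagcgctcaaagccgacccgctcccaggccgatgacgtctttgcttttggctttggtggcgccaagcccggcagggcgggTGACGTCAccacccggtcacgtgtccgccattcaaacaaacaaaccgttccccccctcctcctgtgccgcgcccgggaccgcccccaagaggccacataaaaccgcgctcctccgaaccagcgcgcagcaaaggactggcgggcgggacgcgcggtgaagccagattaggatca
Ier2: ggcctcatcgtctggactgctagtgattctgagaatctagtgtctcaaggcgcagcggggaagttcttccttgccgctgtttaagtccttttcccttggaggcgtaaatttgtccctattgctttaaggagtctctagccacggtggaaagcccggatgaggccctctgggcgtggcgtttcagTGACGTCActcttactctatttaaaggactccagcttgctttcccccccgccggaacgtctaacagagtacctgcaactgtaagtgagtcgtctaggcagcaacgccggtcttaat
Jund: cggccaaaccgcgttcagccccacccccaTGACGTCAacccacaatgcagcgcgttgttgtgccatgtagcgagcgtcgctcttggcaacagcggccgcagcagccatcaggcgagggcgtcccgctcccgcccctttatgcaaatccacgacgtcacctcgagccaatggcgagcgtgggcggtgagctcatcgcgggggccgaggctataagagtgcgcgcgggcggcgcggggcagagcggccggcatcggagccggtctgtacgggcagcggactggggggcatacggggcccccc

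Steroid receptors and genes of the glucocorticoid response bear on the stress arm of the study. Nr3c1, the glucocorticoid receptor gene, had 1.88, 2.40 and 2.96 in CA1 and 2.30, 2.55 and 2.71 in CA3 and did not pass (-0.08 ± 0.0992, adjusted p = 0.486). Nr3c2, the mineralocorticoid receptor gene, was lower in CA1 (-0.36 ± 0.122, adjusted p = 0.0208), as was Hsd11b1, which regenerates active corticosterone (-0.24 ± 0.0946, adjusted p = 0.0415). These calls held in 18 of 22 alternative settings for Nr3c2 and in 11 for Hsd11b1, with differences of -0.47 to -0.16 for Hsd11b1. Of 14 measured genes of this list 1 was higher (Esr2, the oestrogen receptor beta gene, 0.25) and 4 lower, where 35.8% and 23.9% of all probe sets were. Bdnf, the neurotrophin gene of granule and CA3 cells, did not pass over 11 pairs (-0.04 ± 0.0711, adjusted p = 0.679), and its 8-pair difference was -0.17.

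Whether the CA1 minus CA3 difference depended on stress or lineage was tested on the 11 pool differences. No probe set passed for stress, for lineage or for their combination (limma, 0 of 27342 each). With 1 pool left out, calls for stress numbered 5 without NSt-Con 1, 2 without St-Vin 3, 1 without NSt-Con 3 and 0 without any of the others. At an unadjusted p under 0.05 there were 4008 for stress (14.7%), 900 for lineage (3.29%) and 1343 for the combination (4.91%). With 1 pool left out these numbered 2485 (without St-Con 2) to 4339 for stress, 640 to 1229 for lineage, and 572 (without St-Con 1) to 2094 (without St-Con 2) for the combination. Among the 11 CA1 arrays used, those of St-Vin rats were the only ones scanned on day 4, so a difference of this group cannot be told apart from scan day.

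The smallest adjusted p for stress was 0.118, which Mef2d, Pogk and Clxn had. For Mef2d, a factor of activity-dependent transcription, CA1 minus CA3 was 0.20 to 0.29 in the 3 St-Vin pools, -0.15 and -0.14 in St-Con, and -0.54 to -0.27 in the 6 NSt pools, a stressed minus non-stressed contrast of 0.43 ± 0.0585. All St pools lay above all NSt pools. Pogk, a gene derived from a transposase, followed the same order (0.60 ± 0.084), and Clxn, a calcium-binding protein of cilia, ran the other way (-0.81 ± 0.12).

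For the combination the smallest adjusted p was 0.157, that of Sh3bp4, an adaptor of endocytosis, which was 0.80 to 0.91 higher in CA1 in St-Vin, 0.08 and 0.30 in St-Con, -0.14 to 0.05 in NSt-Vin and 0.29 to 0.49 in NSt-Con. The smallest adjusted p for lineage was 0.9995. Among the 38 probe sets past 2-fold, the smallest adjusted p was 0.192 for stress and 0.91 for the combination. Pdyn, as an example, had a stressed minus non-stressed contrast of -0.10 ± 0.315 and a vinclozolin minus control lineage contrast of -0.01 ± 0.315. A p-value above the threshold does not show that the areas differed alike in all groups.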

How the data were processed

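RNA from CA1 and CA3 punches was hybridised to 1-colour Affymetrix whole-transcript arrays. The deposited values are log2 signals that the authors made with RMA in Partek, per the submitters' processing notes; versions are not given in the sources used here. Depth has no meaning for arrays, and the number of arrays limits the precision. Probe sets were named from the platform table: 15097 of 27342 had 1 symbol, 323 several and 11922 none, and a gene is its probe set with the highest mean. The CA1 St-Con 3 array was left out as the mean of its group.

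Each array was centred on its median. limma 3.58.1 (R 4.3.3) fitted area with the pool as a block, with empirical Bayes variances and Benjamini-Hochberg adjustment over all probe sets, and fitted stress, lineage and their combination to the pool differences. SE values come from these fits. The scripts were tested on simulated data.

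Pairing comes from the labels, since CA1 and CA3 of a pool are the same animals. Deviations from group means correlated at -0.0989 to 0.384 within pools (median -0.00821, 3 of 11 over 0.1), and at -0.393 to 0.221 between pools of 1 group (median -0.00236, 4 of 20 over 0.1), so the deviations do not show the pairing.

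Genes named are the 12 highest and 12 lowest called with the same sign in all pairs, up to 5 called members of each gene list, members known for a contrast, a fixed set of markers, probe sets past 2-fold and the 3 smallest p-values of each interaction. Members and lists were chosen with earlier results of these data known, and the sizes of 0.5 and the 8-pair fit after the values were seen. Alternatives were no block, no centring, quantile normalization, a filter at the 30th percentile, trend and robust variances, 12 pairs, pools left out, pairs by CA1 scan day, and limma's treat.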

Additional observations from a re-analysis of the deposited data

How the results depend on the processing

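Calls between CA1 and CA3 numbered 10365 above the 30th percentile of signal (5041 higher, 5324 lower, from fewer probe sets), 9358 in the pairs with CA1 scanned on day 4 (6565 higher, 2793 lower, from fewer pairs) and 190 against a minimum difference of 0.5 (142 higher, 48 lower). With 1 pool left out they numbered 15439 to 16455. The share of higher calls was 60.0% in the main setting. It was 10.3% of 21476 calls for values as deposited, which move the median difference to -0.206, 48.8% of 15468 after quantile normalization, 48.6% above the 30th percentile and 70.2% on day 4. Directions of small differences are therefore relative to the array median. At 2-fold there were 82 calls as deposited (6 higher, 76 lower), 127 on day 4, 83 without the pools numbered 3, 25 against a minimum difference of 0.5, and 23 to 53 with 1 pool left out. Without the replicate block (the 22 arrays unpaired), 16715 probe sets passed, and 1 passed for stress by lineage (Sh3bp4, adjusted p = 0.0106), and the block moved no other total of calls by over 1.5 times. With the averaged CA1 array kept (12 pairs), 173 passed for stress and 1 for stress by lineage. With 1 pool left out, 0 to 5 passed for stress and 0 for lineage and for stress by lineage. Among named genes, Spink8 turned to -0.08 as deposited. On day 4, which holds only the St-Vin pairs, Nr3c1, Mef2d and Pogk turned to 0.34, 0.24 and 0.15, so scan day and group cannot be told apart. The cause was not tested. Over the named genes and all settings, 1726 values stayed on the same side of the threshold, 134 no longer passed, 41 newly passed and 4 turned. Quantile normalization, trend and robust variances, day 3 and leaving out pools NSt-Con 2 and NSt-Con 3 moved no total of calls by over 1.5 times. The CA1 arrays of those pools had the highest choroid list means in CA1 (0.96 and 2.41), but CA3 NSt-Con 2 had 0.09. CA3 St-Con 1 (0.74) and CA3 St-Vin 3 (0.70) were kept. On day 3, however, the 2-fold calls were 15 higher and 12 lower. Without pools NSt-Con 2 and NSt-Con 3, 2405 probe sets had an unadjusted p under 0.05 for stress. Interactions were not fitted within a scan day, without the pools numbered 3 or with treat.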
